A study of Mus musculus with 9 samples.

Results

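Messenger RNA of 6 transcription factors known for their expression in interneurons of the caudal ganglionic eminence (CGE), Prox1, Npas1, Npas3, Nr2f1, Nr2f2 and Sp8, was followed across 3 sets of mouse cortical interneurons at postnatal day 5. The members were taken by gene symbol, and all 6 were found among the 23319 gene symbols of the count tables. Each sample consisted of 150 GFP+ cells picked by hand after dissociation of layer 2/3 tissue from 2 frontal midline areas, the medial prefrontal cortex and the anterior cingulate cortex. All 9 libraries carried the Cre-dependent reporter Ai47, and they differed in the driver: 3 were VIP-Cre;Ai47 and 3 were SOM-Cre;Ai47, both with no treatment listed, and 3 were Nkx2.1-CreER;Ai47 with tamoxifen at embryonic day 17. The groups are called VIP, SOM and Nkx2.1 here. VIP-Cre marks cells of the Vip gene and SOM-Cre cells of the somatostatin gene, while Nkx2.1-CreER marks cells that expressed Nkx2-1 at the time of tamoxifen. Tamoxifen was listed for the Nkx2.1 group alone, so the agent and the driver line cannot be told apart. The labels do not tell whether replicate libraries are from different animals, so the spread behind each p-value is that between these samples and could be technical.

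Cortical interneurons arise in the ventral forebrain. Those of the medial ganglionic eminence (MGE) pass through expression of Nkx2-1 and Lhx6 and include the somatostatin and parvalbumin cells, and Nkx2.1-CreER with tamoxifen late in gestation is widely used to mark chandelier cells among them. Those of the CGE, which include the VIP cells, lack Nkx2-1. The CGE factors belong to 4 families: Prox1 is a homeodomain protein needed for the migration and maturation of CGE interneurons, Sp8 is a zinc finger protein of the Sp family, Npas1 and Npas3 are basic helix-loop-helix PAS proteins that pair with ARNT proteins, and Nr2f1 and Nr2f2 (COUP-TFI and COUP-TFII) are orphan nuclear receptors. Nr2f2 is used as a CGE marker but is also known from parts of the MGE and from subsets of somatostatin cells.

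The start-site sequences are shown for 3 members with unlike patterns in the data below: Prox1 and Npas1, which passed the test between VIP and Nkx2.1 libraries, and Nr2f2, whose levels in VIP and SOM libraries overlapped. Each window runs from 250 bases before to 50 bases after a start site of RefSeq on build GRCm38.p6, and is printed 5′ to 3′ on the strand of the gene. Capitals mark the letters GGGCGG, the GC box bound by Sp family proteins, or their reverse complement CCGCCC.
Prox1, chr1:190170778-190171077, minus strand: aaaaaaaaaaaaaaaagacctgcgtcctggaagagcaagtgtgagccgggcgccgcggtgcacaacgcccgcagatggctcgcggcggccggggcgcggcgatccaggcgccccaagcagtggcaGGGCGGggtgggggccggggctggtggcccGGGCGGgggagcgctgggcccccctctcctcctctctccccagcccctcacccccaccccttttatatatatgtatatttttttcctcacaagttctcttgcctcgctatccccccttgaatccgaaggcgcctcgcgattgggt
Npas1, chr7:16476731-16477030, minus strand: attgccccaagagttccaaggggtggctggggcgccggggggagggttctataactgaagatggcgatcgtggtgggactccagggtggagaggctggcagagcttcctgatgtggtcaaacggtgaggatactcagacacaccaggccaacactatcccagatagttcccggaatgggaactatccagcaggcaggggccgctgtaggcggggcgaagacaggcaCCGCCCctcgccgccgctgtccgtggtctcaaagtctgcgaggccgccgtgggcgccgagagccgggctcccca
Nr2f2, chr7:70366697-70366996, minus strand: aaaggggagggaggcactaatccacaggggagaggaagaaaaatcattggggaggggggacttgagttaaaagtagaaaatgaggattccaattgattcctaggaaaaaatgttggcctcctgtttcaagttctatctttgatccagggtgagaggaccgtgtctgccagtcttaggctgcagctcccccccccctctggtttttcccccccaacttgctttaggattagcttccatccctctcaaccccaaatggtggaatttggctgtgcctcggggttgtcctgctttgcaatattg

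All 6 members had an entry in the promoter table, with 10 windows among them. Both strands were searched for 4 motifs: AGGTCA, the half-site of nuclear receptors, ACGTG, the core bound by basic helix-loop-helix PAS proteins, GGGCGG, and TAATTA, a homeodomain core. None of the 4 motifs contains another. The Prox1 window above held 2 GC boxes, starting 125 and 95 bases before the start site, and the Npas1 window held 1, on the reverse strand 24 bases before it. The Nr2f2 window held none of the 4 motifs. Of all 32851 promoter windows of this length, 35.7% held GGGCGG, 19.6% ACGTG, 16.3% AGGTCA and 5.29% TAATTA. These matches describe the letters of the windows, and no binding was measured.

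A library held 6484488 to 12465997 reads in genes, and levels are given as CPM, reads scaled to a common total with TMM factors, on which scale 3 reads came to 0.246 to 0.445 CPM. A library had reads for 8180 to 11490 genes, and the correlation of log2(CPM + 1) between libraries of a group ran from 0.485 to 0.715, highest in SOM and lowest in Nkx2.1. The lines were checked by their defining genes. Sst stood at 1734 ± 381 CPM in SOM (SD, n = 3) and at 17.5 ± 17.9 CPM in Nkx2.1, with 1 read in VIP. Vip stood at 635 ± 201 CPM in VIP, with 31 reads in Nkx2.1, all in replicate 1, and 11 in SOM, all in replicate 3. Nkx2-1 had 23 reads in Nkx2.1, 1 in SOM and 0 in VIP libraries. Astrocyte markers summed to 253 to 3539 CPM in Nkx2.1 libraries, with the highest in replicate 1, to 63.9 to 211 CPM in SOM and to 262 to 412 CPM in VIP. The number of the 8 markers with a read was 8, 6 and 8 in that order, and Gfap and Gja1 were at 0 in SOM. Excitatory neuron markers summed to 3.55 to 310 CPM in Nkx2.1, 78.9 to 183 CPM in SOM and 33.1 to 156 CPM in VIP, with 5, 7 and 8 of 10 detected, Slc17a7 at 0 in Nkx2.1 and Neurod1 at 0 in every library. Cux2 alone stood at 134 ± 117 CPM in Nkx2.1, 127 ± 48.2 in SOM, where it made up most of the sum, and 26.5 ± 25.0 in VIP. Oligodendrocyte lineage markers summed to 259 to 302 CPM in Nkx2.1, 99.9 to 265 CPM in SOM and 1.72 to 111 CPM in VIP, with 7, 8 and 6 of 8 detected. Microglia markers stayed at or under 17.8 CPM, and endothelial and mural markers at or under 17.6 CPM, in each library. The microglia marker Cx3cr1 lies in a run of 461 neighbouring genes on chromosome 9 without a read, so its zeros are no measure of these cells. The part of these other cells in the members' levels was not tested. In bulk samples, fewer cells of a type and less RNA per cell cannot be told apart.

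Prox1, the homeodomain member, was read almost only in VIP libraries. Its level was 369, 408 and 691 CPM in VIP replicates 1, 2 and 3, from 2999, 3947 and 8423 reads. It had no read in any Nkx2.1 library, which allows 0.0916 CPM over that group at the limit of 3 reads. SOM replicates 1 and 2 also had no read, and SOM replicate 3 had 6 reads, or 0.686 CPM. Every VIP library was thus far above every library of the other lines. Over the groups, the mean was 489.5 ± 176 CPM in VIP (SD, n = 3) and 0.229 ± 0.396 CPM in SOM. The gene lies on the minus strand of chromosome 1 at 190118035 to 190170714 (GRCm38).

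Sp8, the zinc finger member, was the lowest of the 6 in VIP libraries, at 43.3, 28.3 and 71.6 CPM in replicates 1, 2 and 3. It had no read in the Nkx2.1 libraries. In the SOM group it was read in replicate 1 alone, at 19.3 CPM from 182 reads, with 0 reads in replicates 2 and 3. The VIP libraries were all above that single SOM library, and the group means were 47.7 ± 22.0 CPM in VIP and 6.43 ± 11.1 CPM in SOM (SD, n = 3). The gene lies on the plus strand of chromosome 12 at 118846329 to 118852576. Its close relative Sp9, also an interneuron factor of the ganglionic eminences, had the reverse order, with 2 reads over the VIP libraries against 22.6 ± 14.8 CPM in Nkx2.1 and 18.96 ± 18.0 CPM in SOM (SD, n = 3), and it was singled out after its values were seen. The Sp9 differences did not pass the test (edgeR adjusted p = 0.198 against Nkx2.1 and 0.436 against SOM).

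Npas1, a PAS protein that acts mainly as a repressor, had the tightest VIP libraries, at 488, 545 and 598 CPM in replicates 1, 2 and 3. SOM libraries held 119.7, 47.7 and 54.3 CPM. Nkx2.1 libraries held 0.902, 0 and 2.15 CPM, from 8, 0 and 26 reads. The 3 groups were ordered VIP over SOM over Nkx2.1 with no overlap between any pair, at means of 543.6 ± 54.8, 73.9 ± 39.8 and 1.02 ± 1.08 CPM (SD, n = 3). The gene lies on the minus strand of chromosome 7 at 16455721 to 16477728.

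Npas3, the related PAS protein, was the only member read in all 9 libraries at a level above the filter on low counts. It stood at 364.8, 425.6 and 523.6 CPM in VIP replicates 1, 2 and 3, and at 172.8, 64.2 and 363.1 CPM in SOM. Nkx2.1 libraries held 14.2, 126.5 and 66.4 CPM. VIP libraries lay above the others, although SOM replicate 3 lay just under VIP replicate 1, and the SOM and Nkx2.1 libraries overlapped. The means were 438 ± 80.1 CPM in VIP, 200.04 ± 151 CPM in SOM and 69.0 ± 56.2 CPM in Nkx2.1 (SD, n = 3). The gene spans chromosome 12 from 53248677 to 54072175 on the plus strand.

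Nr2f1, the first of the nuclear receptors, stood at 216, 114.6 and 154.7 CPM in VIP replicates 1, 2 and 3. SOM libraries held 42.6, 31.9 and 28.2 CPM, and Nkx2.1 libraries 30.3, 28.4 and 0 CPM. SOM and Nkx2.1 thus overlapped, and Nkx2.1 replicate 3 had no read for this gene while the other 2 libraries had 269 and 335. The means were 162 ± 51.2, 34.2 ± 7.48 and 19.6 ± 16.97 CPM in VIP, SOM and Nkx2.1 (SD, n = 3). Nr2f1 lies on the minus strand of chromosome 13 at 78188973 to 78199757 and overlaps the antisense gene A830082K12Rik. If the counting ignored strand, reads on the shared bases could not be told apart. Such reads may then have gone to the summary entry for ambiguous reads, which held 0.700% to 0.801% of a library's total. A830082K12Rik was itself counted, with 619, 207 and 139 reads in SOM, 211, 55 and 125 in VIP and 6, 9 and 0 in Nkx2.1 libraries, so it was highest in SOM, unlike Nr2f1.

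Nr2f2, the second nuclear receptor, was the member that did not separate VIP from SOM. It stood at 337.6, 101.5 and 109.6 CPM in VIP replicates 1, 2 and 3, and at 217, 97.2 and 191.7 CPM in SOM. Nkx2.1 libraries held 1.01, 0 and 0 CPM, all 9 reads being in replicate 1. The VIP and SOM libraries overlapped, with means of 182.9 ± 134 and 168.6 ± 63.1 CPM, and both groups lay far above the Nkx2.1 mean of 0.338 ± 0.586 CPM (SD, n = 3). The gene lies on the minus strand of chromosome 7 at 70351944 to 70366735, where the counted gene B130024G19Rik, with 24 reads over all libraries, overlaps it. Of the 50-base stretches of the transcripts, 0.196% for Nr2f1 and 0.385% for Nr2f2 also occurred in another gene, and none did for the other 4 members.

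**Figure D1:**
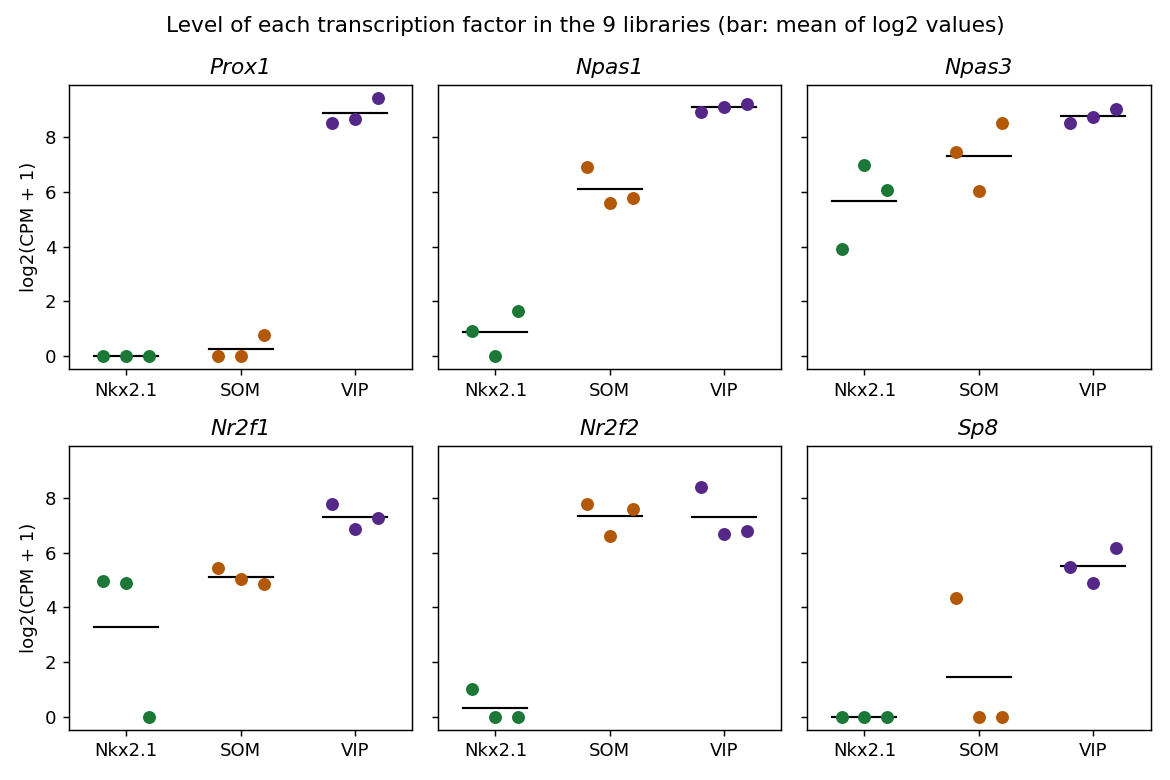
Level of each of the 6 transcription factors as log2(CPM + 1) on the vertical axis, with 1 point per library, grouped by line on the horizontal axis, and a bar at the mean of the log2 values of the 3 libraries. Prox1 and Sp8 sit at or near 0 outside VIP except for SOM replicate 1 in Sp8, Npas1 steps down from VIP to SOM to Nkx2.1, and Nr2f2 overlaps between VIP and SOM.

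The comparison of VIP with Nkx2.1 libraries sets a CGE line against a line of MGE origin. All 6 members were higher in every VIP library than in every Nkx2.1 library, whereas 12.9% of the 10728 genes tested were higher in VIP without overlap. Prox1 and Npas1 rose past the threshold of an adjusted p of 0.05, 2 of the 6 members, against 0.130% of all genes tested that were called higher in VIP. Prox1 and Sp8 would not have entered the test without the VIP libraries, where they were high. Their place among the genes tested, and in the members' counts and medians, is thus not independent of those levels. Prox1 was at least 5344-fold higher in VIP, its mean CPM over the limit of 3 reads in the Nkx2.1 group, and its fitted log2 difference was 15.22 ± 2.01 (SE, edgeR adjusted p = 0.0316). Npas1 was 533-fold higher, with a fitted log2 difference of 9.03 ± 1.39 (edgeR adjusted p = 0.0325). A fitted value against a group at 0 depends on the prior count and is no bound.

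The other 4 members did not pass against Nkx2.1. Nr2f2 was 540.5-fold higher at a log2 difference of 9.08 ± 1.84 (edgeR adjusted p = 0.0950), and Sp8 at least 521-fold higher, with an edgeR adjusted p of 0.231. Npas3 was 6.34-fold higher, with a log2 difference of 2.66 ± 0.85 and a 95% interval of 0.78 to 4.54 (edgeR adjusted p = 0.217). Nr2f1 was 8.27-fold higher, and its interval of -0.62 to 6.70 on the log2 scale reached below 0 (edgeR adjusted p = 0.436). The unadjusted p was under 0.05, higher in VIP, for 5 members and for 9.43% of all genes tested, and the median log2 difference was 9.05 for the members and -0.0028 for all genes tested. With Prox1 and Sp8 set to their bounds the members' median was 9.03. With the Wald test of DESeq2, which called 8.65% of 10550 genes higher in VIP, Prox1, Npas1, Nr2f2 and Sp8 passed. The DESeq2 log2 value of Sp8, 25.8 ± 2.94 (SE), was fitted against a group without a read and is no measure of size.

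The calls moved with single libraries. The Prox1 call was lost without VIP replicate 1, 2 or 3 (edgeR adjusted p = 0.108, 0.0822 and 0.137), and the Npas1 call was kept only without Nkx2.1 replicate 2 or 3 (0.00684 and 0.0411) and ranged from 0.0523 to 0.108 without any of the other 7 libraries. Nr2f2 passed without Nkx2.1 replicate 1, the library with its 9 reads and with the highest astrocyte marker sum (edgeR adjusted p = 0.0140). That library also held all of the group's reads of the CGE interneuron genes Vip (31), Synpr (182) and Crh (225). Lamp5, another such gene, was instead read only in Nkx2.1 replicates 2 and 3.

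Against SOM libraries, VIP libraries were higher without overlap for 5 of the 6 members, all but Nr2f2, where 9.02% of all genes tested were. Of these 5, Prox1 and Sp8 were among the genes tested only because of their VIP libraries. None of the 6 passed the threshold with edgeR, which called 0.0186% of genes higher in VIP. The unadjusted p was under 0.05, higher in VIP, for 2 members and for 2.36% of all genes tested, and DESeq2 called 1, Prox1 (adjusted p = 7.36e-08), against 1.57% of 10828 genes. Prox1 was 2141-fold higher on 6 SOM reads, at a fitted log2 difference of 10.95 ± 1.67 (SE, edgeR adjusted p = 0.0784), and it passed without Nkx2.1 replicate 2 in the shared fit (0.0453). Npas1 was 7.35-fold higher, at 2.88 ± 1.04 on the log2 scale (edgeR adjusted p = 0.534).

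The remaining members gave wide intervals between VIP and SOM. The ratio was 4.73 for Nr2f1, with a 95% interval of the log2 difference from -1.31 to 5.79, 2.19 for Npas3, from -0.66 to 2.92, and 7.42 for Sp8, from -3.14 to 8.91. Nr2f2 had a ratio of 1.08 and a log2 difference of 0.11 ± 1.28, with an interval of -2.73 to 2.96, so that neither a higher nor a lower level in VIP could be read at this spread. The sign of that Nr2f2 difference turned without SOM replicate 2 (-0.16) or VIP replicate 1 (-0.70). The members' median log2 difference was 2.56, beside 0.0037 over all genes tested.

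Between the MGE-derived groups, 2 members, Npas1 and Nr2f2, were lower in every Nkx2.1 library than in every SOM library, where 14.0% of all genes tested were. No member passed with edgeR, which called 0.0280% of genes lower in Nkx2.1. An unadjusted p under 0.05 was found, lower in Nkx2.1, for 4 members and 8.38% of all genes tested, and DESeq2 called 3, Npas1, Nr2f2 and Sp8, against 6.83%. Nr2f2 was 498-fold lower in Nkx2.1, at a log2 difference of -8.96 ± 1.83 (SE, edgeR adjusted p = 0.194), and it passed without Nkx2.1 replicate 1 (0.0190). Npas1 was 72.5-fold lower, at -6.16 ± 1.23 (edgeR adjusted p = 0.172). Sp8 was at least 70.2-fold lower, all from SOM replicate 1. The DESeq2 call of Sp8 (log2 of -22.9 ± 2.94) thus rested on 1 SOM library against a group without a read. For this difference edgeR gave an adjusted p of 0.384, and the libraries overlapped. Npas3 and Nr2f1 had ratios of SOM to Nkx2.1 of 2.90 and 1.75, with edgeR adjusted p of 0.533 and 0.970 and overlapping libraries. The members' median log2 difference was -5.21, or -3.83 with Prox1 and Sp8 at their bounds, beside -0.0073 over all genes tested.

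Set against the average of the log2 levels of the MGE-derived groups, VIP libraries were higher without overlap for 5 members, again all but Nr2f2, where 4.73% of genes tested were. Prox1 and Npas1 rose past the threshold, 2 of 6, against 0.130% of all genes tested called higher in VIP. Here too Prox1 and Sp8 were among the genes tested only because of their VIP libraries. The fitted log2 difference was 13.08 ± 1.33 for Prox1 (SE, edgeR adjusted p = 0.00842) and 5.95 ± 0.90 for Npas1 (edgeR adjusted p = 0.0258). The edgeR adjusted p was 0.146 for Nr2f2, 0.278 for Sp8, 0.298 for Npas3 and 0.447 for Nr2f1. An unadjusted p under 0.05, higher in VIP, was found for 5 members and 7.22% of genes, and DESeq2 called 4 members, Prox1, Npas1, Nr2f2 and Sp8, and 4.88% of genes. The DESeq2 log2 value of Sp8, 14.4 ± 2.40, again included the Nkx2.1 group without a read. That of Nr2f2, 4.66, averages 9.14 against Nkx2.1, which had 9 reads, and 0.17 against SOM. This contrast shares all its libraries with the pairwise ones. The Prox1 call was lost without VIP replicate 1 or 3 (edgeR adjusted p = 0.0515 and 0.0580), and the Npas1 call was kept only without Nkx2.1 replicate 2 or 3 (0.00379 and 0.0329) and ranged up to 0.131 otherwise.

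**Figure D2:**
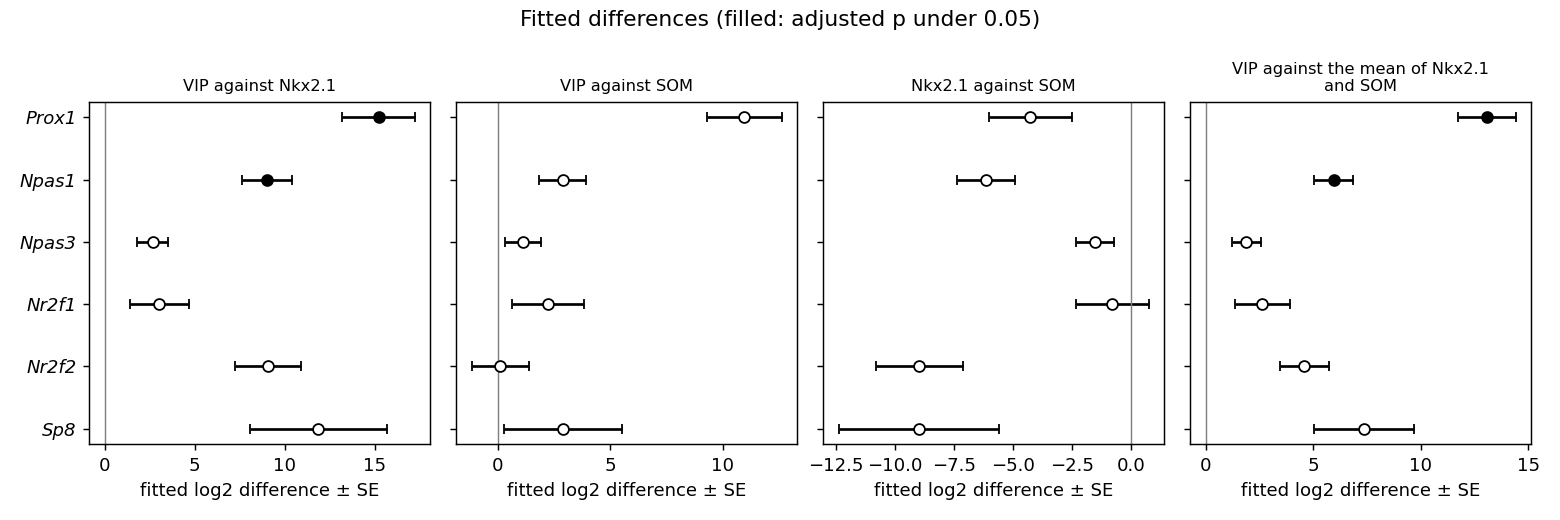
Fitted log2 difference of the 6 transcription factors on the horizontal axis, with bars of 1 SE, for the 4 comparisons, where positive is higher in the group named first and filled points have an edgeR adjusted p under 0.05. Prox1 and Npas1 are filled against Nkx2.1 (15.22 and 9.03) and against the mean of Nkx2.1 and SOM (13.08 and 5.95), and the Nr2f2 point lies near 0 between VIP and SOM (0.11). The Prox1 and Sp8 points against Nkx2.1 depend on the prior count, since that group has no read.

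Levels of different genes were compared per kilobase of exon. In VIP libraries the order was Npas1 at 180.7 ± 18.2 CPM per kilobase, Npas3 at 72.9 ± 13.3, Prox1 at 58.3 ± 21.0, Nr2f1 at 31.8 ± 10.1, Nr2f2 at 21.2 ± 15.5 and Sp8 at 10.5 ± 4.82 (SD, n = 3). Npas1 was clear of the rest in every library, and Npas3 and Prox1 overlapped, as did Nr2f1 with Nr2f2 and Nr2f2 with Sp8. Npas1 made up 45.3%, 53.1% and 46.5% of the members' summed level per kilobase in VIP replicates 1, 2 and 3.

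The order differed in the MGE-derived groups. In SOM libraries Npas3 at 33.3 ± 25.2, Npas1 at 24.6 ± 13.2 and Nr2f2 at 19.6 ± 7.32 CPM per kilobase overlapped, with Nr2f1 below them in every library at 6.72 ± 1.47 (SD, n = 3). In Nkx2.1 libraries only Npas3 at 11.5 ± 9.36 and Nr2f1 at 3.84 ± 3.33 CPM per kilobase exceeded 0.339, the mean of Npas1. Npas3 made up 27.1%, 79.1% and 93.9% of the sum in Nkx2.1 replicates 1, 2 and 3, the remainder in replicate 1 being mostly Nr2f1 at 68.2%.

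Related members shifted against each other between lines. The ratio of Nr2f1 to Nr2f2 per kilobase was 1.09, 1.91 and 2.39 in VIP replicates 1, 2 and 3 and 0.333, 0.555 and 0.249 in SOM, so Nr2f1 was the higher receptor in each VIP library and Nr2f2 in each SOM library. In Nkx2.1 replicate 1 the ratio was 50.6, on 9 Nr2f2 reads. Nkx2.1 replicates 2 and 3 had no Nr2f2 read and so no ratio. The ratio of Npas1 to Npas3 was 2.67, 2.55 and 2.28 in VIP, 1.38, 1.48 and 0.299 in SOM and 0.127, 0 and 0.0648 in Nkx2.1. Npas1 thus exceeded Npas3 in all VIP libraries and in none of the Nkx2.1 libraries. These ratios are descriptions of the libraries, with no test.

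The members' CPM summed to 1819, 1623 and 2149 in VIP replicates 1, 2 and 3, to 571, 241 and 638 in SOM and to 46.5, 154.9 and 68.5 in Nkx2.1. All 6 members had a read in each VIP library, 4 or 5 in SOM libraries and 4, 2 and 2 in the Nkx2.1 libraries. Of all 23319 genes, 9672, 10924 and 10927 had a read in VIP replicates 1, 2 and 3. In SOM 10923, 11081 and 11490 did, and in Nkx2.1 10576, 8180 and 9484. The low member counts in Nkx2.1 are therefore not read as a trait of the members. Every VIP sum was above every SOM sum, and every SOM sum above every Nkx2.1 sum.

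**Figure D3:**
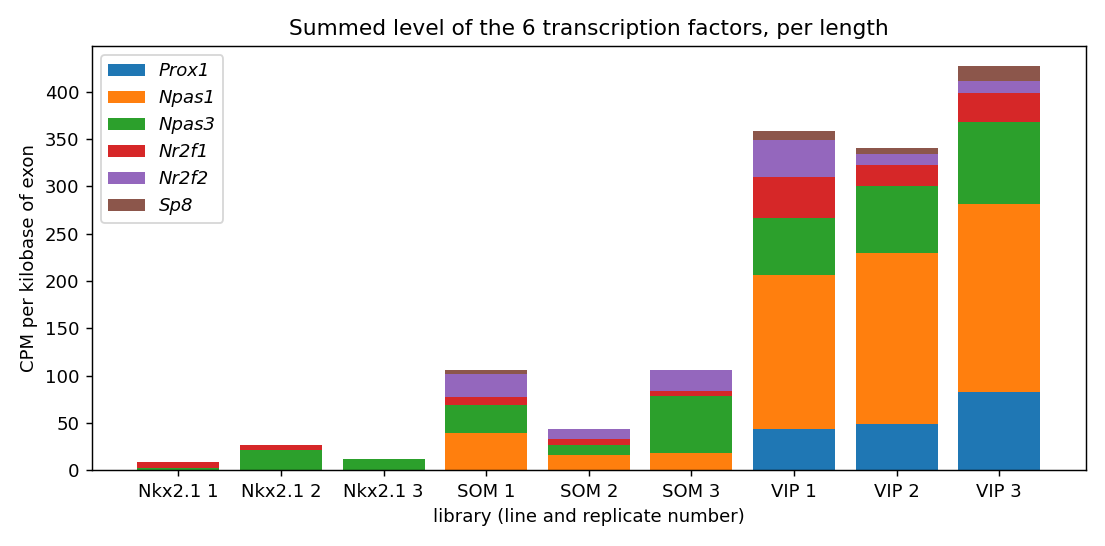
Summed level of the 6 transcription factors in CPM per kilobase of exon on the vertical axis, stacked by gene, for each of the 9 libraries on the horizontal axis. The Npas1 share is the largest in each VIP library (45.3% to 53.1%), and the Nkx2.1 bars hold mainly Npas3 and Nr2f1.

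Genes of CGE interneurons gave the setting for the members. Of 16 listed, which cover peptides, calcium-binding proteins and surface markers of these cells, 13 had a read in some library and 12 were tested, and none passed with edgeR in any comparison. Against Nkx2.1, 9 were higher and 0 lower in VIP at an unadjusted p under 0.05, where 9.43% and 5.73% of all genes tested were. Against SOM, 7 were higher and 1 lower by that measure, beside 2.36% and 4.63% of all genes. DESeq2 gave an adjusted p for 10 of the 12 and called 7 higher against Nkx2.1 and 5 higher against SOM (all genes: 8.65% and 1.57%), with 0 lower in both (all genes: 4.40% and 3.06%). Their libraries did not overlap, higher in VIP, for 10 and 9 of the 12, beside 12.9% and 9.02% of all genes. The median log2 difference was 6.57 against Nkx2.1 and 5.16 against SOM, the latter 3.85 with genes at 0 in a group set to their bounds. Between Nkx2.1 and SOM, 2 were higher and 4 lower in Nkx2.1 at an unadjusted p under 0.05 (all genes: 2.92% and 8.38%), with a median of -1.82, and DESeq2 called 1 higher and 3 lower (all genes: 1.80% and 6.83%).

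Synpr, a synaptic vesicle protein, stood at 2292 ± 284 CPM in VIP, 804 ± 393 in SOM and 6.84 ± 11.8 in Nkx2.1 (SD, n = 3), an order like that of Npas1. Cnr1, the cannabinoid receptor of CCK and other CGE cells, stood at 2103 ± 667 CPM in VIP, 391 ± 178 in SOM and 299 ± 211 in Nkx2.1. Adarb2, an RNA-editing family gene used as a marker of CGE interneurons, ranged from 1186 to 2975 CPM in VIP, from 0.445 to 23.5 in SOM and from 10.7 to 208 in Nkx2.1. These genes were named as the 3 highest of the list, and their edgeR adjusted p against Nkx2.1 was 0.1505, 0.141 and 0.231. Htr3a and Cck, 2 classic CGE genes, had no read in any library. Both lie within a run of 461 neighbouring protein-coding genes on the minus strand of chromosome 9, from 21294275 to 124476898, that had no read in any library, so their zeros are no measure of these cells.

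Paralogs and partner proteins of the members were set beside them. Of 19 listed, 16 were tested and none passed with edgeR in any comparison, while 2 were higher and 5 lower in VIP against Nkx2.1 at an unadjusted p under 0.05 (all genes: 9.43% and 5.73%), and 1 higher and 4 lower against SOM (all genes: 2.36% and 4.63%). DESeq2 called 2 higher and 5 lower against Nkx2.1 (all genes: 8.65% and 4.40%), 1 higher and 3 lower against SOM (1.57% and 3.06%), and 1 lower in Nkx2.1 than in SOM (6.83%). Their median log2 difference was -1.20, -0.12 and 0.34 for VIP against Nkx2.1, VIP against SOM and Nkx2.1 against SOM. Arnt2, an ARNT protein of neurons, was the highest, at 228 ± 44.3 CPM in VIP, 571 ± 128 in Nkx2.1 and 635 ± 170 in SOM (SD, n = 3, edgeR adjusted p = 0.169 and 0.337 for VIP against each).

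Bcl11a and Bcl11b are zinc finger proteins known to bind COUP-TF receptors. Bcl11a stood at 10.7 ± 12.6 CPM in VIP, 247 ± 163 in Nkx2.1 and 675 ± 93.4 in SOM, and Bcl11b at 7.15 ± 6.59, 169 ± 143 and 134 ± 65.0 CPM (SD, n = 3). Every VIP library was below every other library for both genes, without an edgeR call (adjusted p = 0.170 and 0.296 for Bcl11a, and 0.248 and 0.602 for Bcl11b, against Nkx2.1 and SOM). Of the 16 paralogs and partner proteins tested, 5 were lower and 2 higher in VIP without overlap against Nkx2.1. Against SOM, 4 were lower and 2 higher. The share of all genes lower in VIP without overlap is not given here, so these counts cannot be weighed against it. Nr2e1, an orphan receptor of the family next to Nr2f and singled out after its values were seen, stood at 119 ± 72.9 CPM in VIP, with 0 reads in Nkx2.1 and 8 in SOM (edgeR adjusted p = 0.120 and 0.405).

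**Figure D4:**
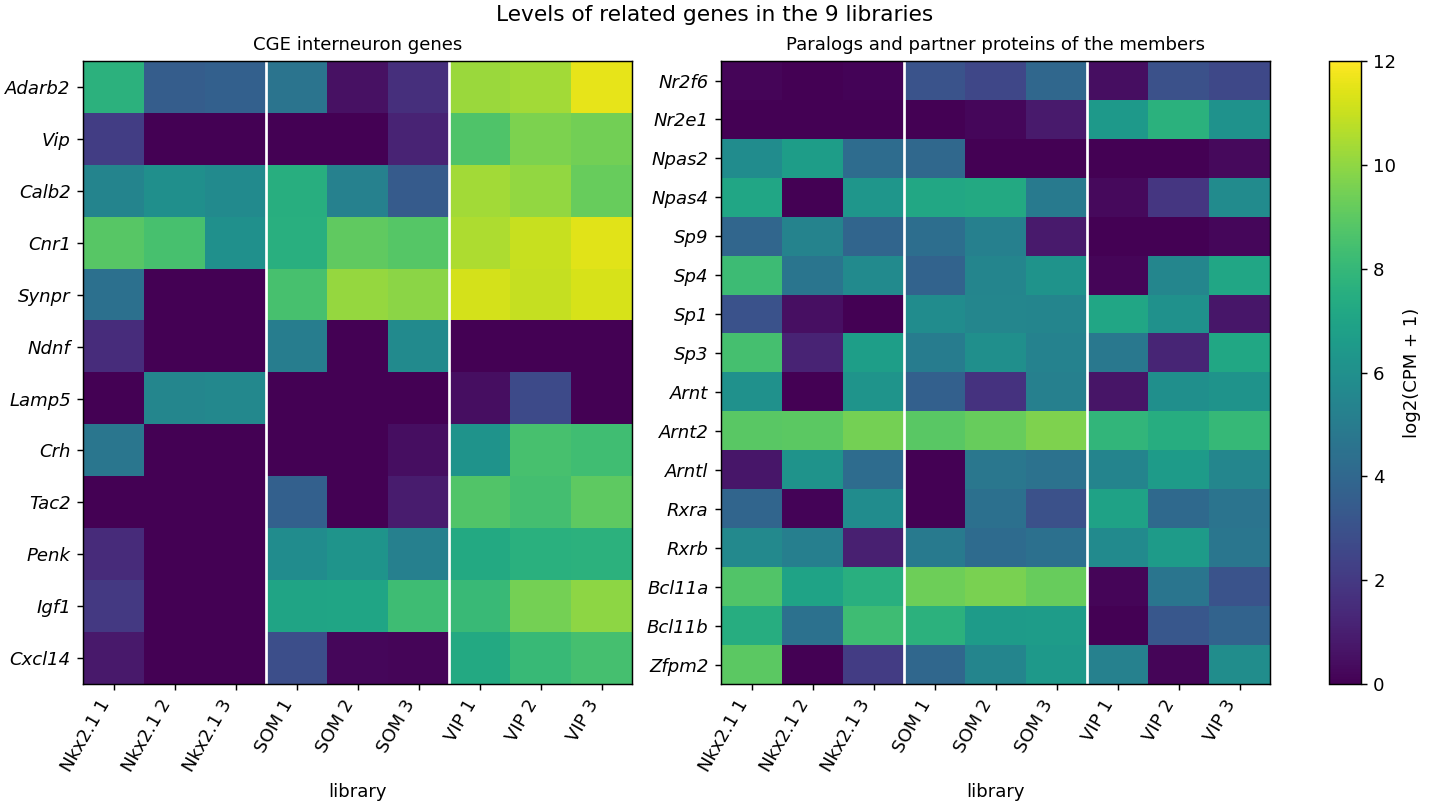
Levels as log2(CPM + 1), shown by colour, of the tested CGE interneuron genes (left, 12 genes) and of the tested paralogs and partner proteins of the 6 transcription factors (right, 16 genes) in the 9 libraries, with white lines between the lines of mice. Most CGE interneuron genes are brightest in the VIP columns, while Arnt2, Bcl11a and Bcl11b are darker there.

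Transcription factors of the wider subpallium and of the MGE were set beside the members. Of 8 subpallial factors 5 were tested and none passed with edgeR, while 1 was higher and 1 lower in VIP at an unadjusted p under 0.05 against each other group (all genes: 9.43% and 5.73% against Nkx2.1, 2.36% and 4.63% against SOM). DESeq2 called 1 higher against Nkx2.1 (all genes: 8.65%), 1 lower against SOM (3.06%) and 1 lower in Nkx2.1 than in SOM (6.83%). Dlx1, a homeodomain factor of nearly all forebrain interneurons, stood at 1022 ± 395 CPM in VIP, 554 ± 94.3 in SOM and 1081 ± 161 in Nkx2.1 (SD, n = 3), and Dlx5 at 70.3 ± 29.5, 51.6 ± 32.6 and 87.2 ± 59.4 CPM.

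Of 8 MGE factors, 6 were tested and 1, Lhx6, passed with edgeR, falling in VIP, where it had 2 reads in all against 740 ± 119 CPM in SOM and 1442 ± 493 CPM in Nkx2.1 (SD, n = 3). Its fitted log2 difference was -14.08 ± 1.05 against Nkx2.1 and -13.12 ± 1.03 against SOM (SE, edgeR adjusted p = 0.000438 and 0.000685), where 0.177% and 0.0559% of all genes tested were called lower in VIP. At an unadjusted p under 0.05, 2 of the 6 were lower in VIP against each other group, Lhx6 and Sox6 (all genes: 5.73% and 4.63%). Sox6, a factor downstream of Lhx6 and named here after its values were seen, stood at 15.2 ± 26.4 CPM in VIP, 657 ± 272 in SOM and 329 ± 197 in Nkx2.1 (SD, n = 3, edgeR adjusted p = 0.594 and 0.329 for VIP against each). Not all MGE factors were lower in VIP. By the sign of the fitted difference, 2 of the 6 were higher in VIP than in Nkx2.1, and 1 than in SOM. Maf stood at 401 ± 185 CPM in VIP, 284 ± 62.7 in SOM and 239 ± 142 in Nkx2.1. Genes of GABAergic neurons in general gave 0 edgeR calls among 4 tested, with 2 higher in VIP against Nkx2.1 and 1 against SOM at an unadjusted p under 0.05 (all genes: 9.43% and 2.36%), and DESeq2 called 1 higher against Nkx2.1 (8.65%) and 1 lower in Nkx2.1 than in SOM (6.83%). Gad1, which makes GABA, stood at 1470 ± 494, 1181 ± 163 and 1251 ± 543 CPM in VIP, SOM and Nkx2.1. Gad2, the gene of the other GABA-making enzyme, stood at 309.96 ± 148, 571 ± 173 and 348 ± 103 CPM in the same order.

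The members' own patterns were compared by Pearson's r of log2(CPM + 1) over the 9 libraries, given as a description since the libraries fall into 3 lines. Between members r ran from 0.505 for Prox1 with Nr2f2 to 0.911 for Npas1 with Nr2f2. Among all genes tested, the 3 nearest to Prox1 were Asic4 (0.997), Sall1 (0.994) and Smoc1 (0.992), and those nearest to Sp8 were Dhx16, Wwc2 and Cxxc5 (0.979 to 0.983). Nearest to Npas1 were Prkar1b, Fxyd6 and Slc35f4 (0.977 to 0.983), and nearest to Npas3 were Rragd, Ccdc25 and Enc1, at lower values of 0.886 to 0.911. Nr2f1 was nearest to Lpcat1, Ddah1 and Ptpn5 (0.961 to 0.972), and Nr2f2 to Dmwd, Trpv2 and Hs6st2 (0.985 to 0.992).

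The levels of 3 of these genes show the patterns they share with a member. Asic4, an acid-sensing channel gene, stood at 1195 ± 165 CPM in VIP against 0.301 in Nkx2.1 and 0.381 in SOM. Sall1, a zinc finger factor gene, stood at 228 ± 106 CPM in VIP, with 0 reads in Nkx2.1 and 0.152 CPM in SOM. Trpv2, a cation channel gene near Nr2f2 in pattern, stood at 63.9 ± 18.8 CPM in VIP, 55.1 ± 12.6 in SOM and 0.338 in Nkx2.1 (SD, n = 3).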

How the data were processed

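RNA-seq counts of 9 libraries, 3 per line, were used. The authors deposited 1 table of raw counts for each library, by gene symbol. The submitters' processing notes list TopHat2 2.0.9, DESeq2 and build mm10 without saying what each was used for. How reads were counted, with which annotation and strand setting, is not given in the sources used here. Each table held 23319 genes and 5 summary entries, which took 83.6% to 85.2% of the total (64.5% to 68.0% not unique) and entered neither the library sizes nor the tests.

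The main test was edgeR's quasi-likelihood test (edgeR 4.0.16, R 4.3.3), all 9 libraries in 1 fit with line as the only term, TMM scaling and filterByExpr by group (minimum count 10). This left 10728 genes, over which p-values were adjusted by Benjamini-Hochberg within a comparison, with a common biological coefficient of variation of 1.40 and 6 residual degrees of freedom. SEs were computed back from the log2 value and its F statistic. All 6 members passed the filter, at a cutoff of 1.09 CPM. Prox1 reached the cutoff in VIP libraries alone and Sp8 in VIP and 1 other library, so neither would have passed without VIP libraries. Folds are ratios of mean CPM, bounds are the mean CPM over the level of 3 reads in the other group, and these bounds cover counting error only, reads without molecular identifiers being no independent molecules. DESeq2 1.42.0 gave an alternative test.

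Exon lengths and positions came from GENCODE M21 on GRCm38, and promoter windows from RefSeq on GRCm38.p6. Named genes were the members, the 3 genes nearest to each by r, and of each list the called genes or, with none called, the 3 with the highest mean CPM, some of which are not reported here. The members and lists were chosen with earlier results of these data known. Other scalings, no filter, only the groups compared, a replicate block and each library left out were also run.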

Additional observations from a re-analysis of the deposited data

How the results depend on the processing

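With RLE size factors no member's call changed, and without TMM 1 gene was higher in VIP than in SOM. DESeq2 called 4, 1 and 4 members higher in VIP against Nkx2.1, SOM and their mean, and 3 lower in Nkx2.1 than in SOM. Its counts of genes higher and lower were 913 and 464, 170 and 331, and 528 and 394 for these VIP comparisons, and 195 and 740 for Nkx2.1 against SOM. Without the filter (14324 genes), 1 member, Prox1, was higher in VIP than in SOM (edgeR adjusted p = 0.0299), with 7 genes higher and 14 lower, and 30 higher and 22 lower against the mean. With only the groups compared, 1 member, Prox1, was higher in VIP against each group, Npas1 being lost against Nkx2.1 (0.0945), with 10 genes lower against Nkx2.1 and 18 higher and 14 lower against SOM, and with 4 higher and 1 lower for Nkx2.1 against SOM.

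The replicate numbers did not pair the libraries: the deviations of same-numbered libraries correlated at -0.0326 to 0.0643 over 9 pairs, 0 of them over 0.1. With a replicate block, 0 members were called against Nkx2.1 (Prox1 0.0780, Npas1 0.0893), with 3 genes higher and 8 lower, and 1 member, Prox1, against the mean (Npas1 0.0733), with 8 genes higher. The block gave 1 gene higher and 3 lower in VIP against SOM, 3 higher and 1 lower in Nkx2.1 against SOM, and a log2 difference of Nr2f2 between VIP and SOM of -0.20.

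Leaving out 1 library at a time gave 0 to 2 members higher in VIP against Nkx2.1, with 3 to 36 genes higher and 9 to 18 lower. It gave 0 to 1 members against SOM, with 0 to 8 genes higher and 3 to 9 lower, and 0 to 2 members against the mean, with 2 to 44 genes higher and 8 to 18 lower. For Nkx2.1 against SOM it gave 0 to 1 members lower, with 0 to 8 genes higher and 0 to 29 lower. The Nr2f2 difference between VIP and SOM ran from -0.70 to 0.39. Where a group was left with 2 libraries, the shared fit still estimated the spread from all groups. Of 409 alternatives to 28 log2 differences (the members and Lhx6), 369 kept direction and side of the threshold, 23 lost a call, 14 gained one and 3, all of Nr2f2 between VIP and SOM, changed sign. Some differences between Nkx2.1 and SOM had no value without the only SOM library with reads (Sp8 without replicate 1, Prox1 without replicate 3). The cause of these changes was not tested. With 3 libraries per group and this spread, a fold such as the 8.27 of Nr2f1 did not pass.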
